A study of Rattus norvegicus with 12 samples.

Results

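T lymphocytes and natural killer (NK) cells of the gut wall were followed through 10 genes: Cd3d, Cd3e, Cd3g, Cd4, Cd8a, Cd8b, Zap70, Cd96, Itgae and Gzmb. All 10 names were found among the 18749 genes of the deposited count table. All 10 passed the filter on low counts, which kept 15704 genes. The series sequenced polyadenylated RNA from the intestine of wild-type rats in 3 groups of 4 libraries and concerns how the small intestine adapts after removal of the colon. The postSTC group was labelled postoperative (replicates 1, 2, 5 and 7), the preSTC group preoperative (replicates 1, 5, 7 and 9), and the preCTC group as taken before a sham operation (replicates 1, 5, 7 and 9). The labels explain neither STC nor CTC and give no intestinal segment, strain, sex, age, time after surgery or count of animals behind a library. No sample taken after a sham operation was analysed here, so the effect of the colectomy and that of time or of surgery in general cannot be told apart. Whether replicates came from separate animals is not given either, so a p-value here measures how far these samples scatter, which may be technical in part.

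T cells carry an antigen receptor that signals through the CD3 chains and the kinase ZAP-70, while CD4 or CD8 binds the presenting MHC molecule. In the gut many T cells lie within the epithelium, where most carry CD8 and the integrin CD103, whose alpha chain Itgae encodes and which binds E-cadherin on epithelial cells. Such cells are often stocked with granzymes, and NK cells share granzymes and CD96 with them.

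Libraries held 30095656 to 39374682 counts, and levels are given as CPM, the count of a gene relative to library size after scaling with TMM factors (trimmed mean of M values). One library stood apart: in postSTC replicate 7, 47.3% of the counts came from 16 genes of male accessory glands, against 0.00146% to 0.028% in the other 11 libraries. Cd52 had 3230 CPM and Gata3 had 173 CPM in that library, against at most 4.21 and 2.63 CPM in the others, so results that rest on it are given with and without it. Leaving it out changed no call among the 10 T and NK cell genes. The name of the gene set held for T cells, since all 3 CD3 genes were read in every library. NK cells were not settled by these genes. Ncr1, which encodes the NK receptor NKp46, had 0 to 0.639 CPM over the 12 libraries and did not pass the filter on low counts. The other 21 of 22 cytotoxic and NK genes passed it, and which cells carried them was not tested.

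Before surgery, 9 of the 10 T and NK cell genes were several times higher in preSTC than in preCTC libraries. The labels give no segment, and these groups differed in other genes too. The chemokine gene Ccl25 averaged 452 CPM in preSTC and 2.16 CPM in preCTC libraries. A difference in intestinal segment cannot be told apart from other differences between these groups, and the same holds for postSTC over preCTC. Cd8a, Gzmb, Cd96, Cd8b, Cd3e, Cd3g, Cd3d, Zap70 and Itgae rose, by 2.88, 2.87, 2.73, 2.58, 2.53, 2.30, 2.23, 2.21 and 1.64 on the log2 scale, and Cd4 did not (0.12). The test was edgeR's quasi-likelihood test with Benjamini-Hochberg adjustment over all genes tested, at an adjusted p under 0.05. These 9 of 10 stood against a background of 19.1% of all tested genes called higher in this comparison and 19.6% called lower (38.7% in all). The libraries of the groups did not overlap for 9 of the 10 genes, against 22.5% of all genes. In this bulk RNA, fewer cells of a type and less RNA per cell cannot be told apart.

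After surgery the mean levels of 9 of the 10 genes lay between those of the other groups. None of the 10 genes passed the test between postSTC and preSTC libraries, where 18% of all genes did (11.1% higher and 6.9% lower). For Cd3g and Zap70 every postSTC library was below every preSTC library, as held for 10.2% of all genes. The log2 difference was below 0 for 9 of them, with a median of -0.67 over the 10 against 0.04 over all tested genes. At an unadjusted p under 0.05, 3 were lower (Cd3g, Zap70 and Gzmb), against 13.5% of all genes, and none was higher, against 20.1%. DESeq2 called these 3 lower and limma voom called Zap70 and Gzmb lower. Over all genes DESeq2 called 3865 in this comparison and limma voom 2391, against 2833 in edgeR. Same-numbered libraries of these groups were taken as pairs because their levels deviated together, which the labels do not state. Not every number occurs in both groups, and the test above was fitted by group alone, without the pairs. A block by replicate number across all 12 libraries also applies the numbers to preCTC libraries, for which pairing was not settled. With that block Gzmb was the 1 gene of the 10 called lower, and 1746 of all genes were called in either direction. With the same block in the 8 libraries compared none of the 10 was called, but only 66 of all genes were.

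Set against preCTC libraries, 6 of the 10 genes were higher in postSTC libraries: Cd96, Cd8b, Cd8a, Cd3e, Zap70 and Itgae. The background was 9.27% of all tested genes called higher and 7.37% called lower (16.6% in all). The libraries did not overlap for Cd3e, Cd8a, Cd96 and Itgae, against 9.54% of all genes. Each pair of comparisons shares the libraries of 1 group, so their values are set side by side and are not independent of each other. By mean level, 9 genes had the order preSTC, postSTC, preCTC from high to low, and Cd4 had the order postSTC, preSTC, preCTC.

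**Figure D1:**
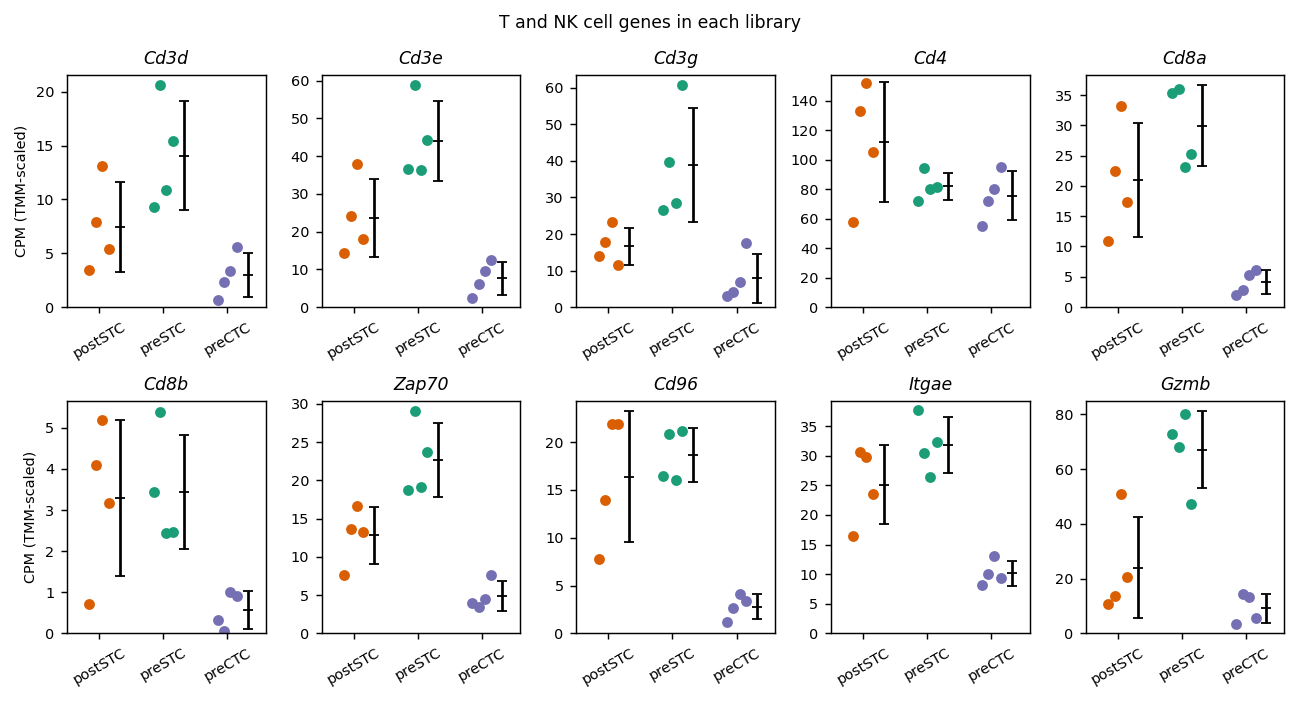
Level of each of the 10 T and NK cell genes in every library (vertical axis, TMM-scaled CPM, a scale of its own for each gene), with the postSTC, preSTC and preCTC groups from left to right; points are libraries, and the bar beside them is the mean ± SD (n = 4). For 9 genes the 4 preSTC points lie above all 4 preCTC points, while the 3 groups overlap for Cd4.

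The CD3 chains form the signalling part of the T cell receptor. In CPM, Cd3e had 14.4, 24, 38 and 18 in the postSTC libraries, 36.7, 58.8, 36.4 and 44.2 in the preSTC libraries, and 2.41, 6.01, 9.59 and 12.5 in the preCTC libraries. Every preSTC and every postSTC library was above all preCTC libraries, and postSTC replicate 5 reached into the preSTC range. Cd3e averaged 44 ± 10.5 CPM in preSTC and 7.62 ± 4.37 CPM in preCTC libraries (SD, n = 4 each), which is 2.53 ± 0.45 (SE) on the log2 scale (edgeR adjusted p = 0.00101). The postSTC mean was 23.6 ± 10.4 CPM, which gave -0.90 ± 0.42 against preSTC (edgeR adjusted p = 0.16) and 1.63 ± 0.43 against preCTC (edgeR adjusted p = 0.0242). This last call was lost without postSTC replicate 5 (edgeR adjusted p = 0.0615), without preCTC replicate 5 (edgeR adjusted p = 0.0602) and in the fit on the 8 libraries compared (edgeR adjusted p = 0.0739).

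Cd3d had the lowest level of the 3 chains per length (TMM-scaled FPKM) in each group. Its CPM values were 3.43, 7.91, 13.1 and 5.37 in postSTC libraries, 9.31, 20.6, 10.9 and 15.4 in preSTC libraries, and 0.628, 2.36, 3.32 and 5.61 in preCTC libraries. Its postSTC range overlapped both other groups. The log2 fold change was -0.91 ± 0.55 for postSTC over preSTC, 2.23 ± 0.57 for preSTC over preCTC and 1.32 ± 0.56 for postSTC over preCTC (edgeR adjusted p = 0.269, 0.00927 and 0.13).

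Cd3g had 14.1, 17.9, 23.2 and 11.4 CPM in postSTC libraries, 26.7, 39.6, 28.5 and 60.7 CPM in preSTC libraries, and 2.93, 4.08, 6.79 and 17.6 CPM in preCTC libraries. All postSTC values lay below all preSTC values, while preCTC replicate 9 was as high as postSTC libraries. The difference between postSTC and preSTC was -1.22 ± 0.49 on the log2 scale and did not pass the test across all 12 libraries (edgeR adjusted p = 0.103). It passed in 2 of 16 alternatives: with a spread estimated from the 8 libraries compared (-1.24 ± 0.31, edgeR adjusted p = 0.0338) and in DESeq2 (-1.23 ± 0.47, adjusted p = 0.0411). It did not pass in limma voom (adjusted p = 0.0631) or with the replicate block in 12 or 8 libraries (edgeR adjusted p = 0.134 and 0.0838). Cd3g rose in preSTC over preCTC libraries by 2.30 ± 0.51 (edgeR adjusted p = 0.004). For postSTC over preCTC it gave 1.08 ± 0.49 (edgeR adjusted p = 0.159), and 1.86 without preCTC replicate 9 (edgeR adjusted p = 0.0103).

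The CD3 genes lie side by side on chromosome 8 in the order Cd3g, Cd3d, Cd3e, with no other protein-coding gene between them in the RefSeq annotation of GRCr8. Their promoters are shown because they belong to neighbouring genes of 1 complex. Each window runs 5′ to 3′ on the gene's strand, with 250 bases before and 50 after the transcription start, and was taken from RefSeq (GRCr8). Cd3g is at chr8:54183869-54184168 (minus strand), Cd3d at chr8:54185269-54185568 (plus strand) and Cd3e at chr8:54211721-54212020 (minus strand). Capitals mark matches to 4 short motifs searched on both strands. The motif of the ETS type was spelled AGGAAG. For the RUNX family of factors the letters searched were TGTGGT, and for the T-box family they were AGGTGT. The motif recognised by GATA factors was spelled AGATAA. Matches did not overlap in the windows shown.
Cd3g: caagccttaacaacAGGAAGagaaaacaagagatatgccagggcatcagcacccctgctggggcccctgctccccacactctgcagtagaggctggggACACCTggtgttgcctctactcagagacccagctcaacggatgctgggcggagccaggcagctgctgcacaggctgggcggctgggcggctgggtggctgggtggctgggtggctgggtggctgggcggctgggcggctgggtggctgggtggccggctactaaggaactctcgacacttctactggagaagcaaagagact
Cd3d: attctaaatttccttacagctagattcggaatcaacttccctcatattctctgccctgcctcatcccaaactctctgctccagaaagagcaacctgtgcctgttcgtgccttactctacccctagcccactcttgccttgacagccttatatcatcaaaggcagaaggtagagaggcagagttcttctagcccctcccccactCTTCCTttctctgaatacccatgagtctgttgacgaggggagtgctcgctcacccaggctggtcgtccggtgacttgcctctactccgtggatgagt
Cd3e: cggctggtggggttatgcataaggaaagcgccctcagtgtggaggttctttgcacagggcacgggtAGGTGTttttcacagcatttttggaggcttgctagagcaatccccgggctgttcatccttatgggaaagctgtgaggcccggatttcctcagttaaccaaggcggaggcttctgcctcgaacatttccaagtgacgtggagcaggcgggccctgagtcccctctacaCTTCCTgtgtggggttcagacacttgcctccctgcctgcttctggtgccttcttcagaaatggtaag
The ETS-type letters occur once in each of the 3 windows, on the plus strand of the window in Cd3g and as their reverse complement in Cd3d and Cd3e. The T-box-type letters occur once in Cd3g, reversed, and once in Cd3e. Promoter windows were at hand for 8 of the 10 genes, all but Cd4 and Cd8b. The ETS-type letters were in 6 of the 8 windows, against 34.5% of 33469 rat promoter windows of the same length. The T-box-type letters were in 2 of 8, against 13.6% of all windows. A match describes the letters and shows no binding.

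Zap70, the kinase that docks on phosphorylated CD3 chains, had 7.63, 13.6, 16.7 and 13.3 CPM in postSTC libraries, 18.8, 29.1, 19.2 and 23.7 CPM in preSTC libraries, and 3.95, 3.40, 4.55 and 7.69 CPM in preCTC libraries. Every preSTC library was above every library of the other groups. The preSTC mean of 22.7 ± 4.82 CPM stood against 4.9 ± 1.92 CPM in preCTC libraries (log2 fold change 2.21 ± 0.30, edgeR adjusted p = 0.000173). Zap70 was also higher in postSTC than in preCTC libraries, by 1.39 ± 0.29 (edgeR adjusted p = 0.00751), although the lowest postSTC value and the highest preCTC value crossed. Between postSTC and preSTC libraries it gave -0.82 ± 0.29 (edgeR adjusted p = 0.0648). It passed in 2 of 16 alternatives, DESeq2 (adjusted p = 0.022) and limma voom (adjusted p = 0.0391). With the replicate block in 12 or 8 libraries it did not pass (edgeR adjusted p = 0.114 and 0.119).

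The coreceptors did not move alike. Cd4 marks helper and regulatory T cells, and in rats macrophages carry it too. It had 58, 133, 152 and 105 CPM in postSTC libraries, 72, 94.3, 79.9 and 81.7 CPM in preSTC libraries, and 54.8, 72.1, 80.3 and 94.9 CPM in preCTC libraries. The 3 groups overlapped, with postSTC replicate 1 below the whole preSTC range and the other 3 postSTC libraries above it. The log2 fold change was 0.45 ± 0.25 for postSTC over preSTC, 0.12 ± 0.25 for preSTC over preCTC and 0.57 ± 0.25 for postSTC over preCTC (edgeR adjusted p = 0.233, 0.737 and 0.148). Without postSTC replicate 1 Cd4 was higher in postSTC than in preSTC libraries by 0.66 ± 0.18 (edgeR adjusted p = 0.0238), and higher than in preCTC libraries by 0.78 ± 0.18 (edgeR adjusted p = 0.0151).

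Cd8a encodes the CD8 alpha chain, which intraepithelial lymphocytes often carry as a homodimer. It had 10.9, 22.4, 33.2 and 17.4 CPM in postSTC libraries, 35.4, 36, 23.1 and 25.3 CPM in preSTC libraries, and 1.94, 2.89, 5.27 and 6.19 CPM in preCTC libraries. All libraries of postSTC and of preSTC were above all of preCTC, and postSTC and preSTC overlapped. Cd8a rose by 2.88 ± 0.41 in preSTC over preCTC libraries and by 2.36 ± 0.40 in postSTC over preCTC libraries (edgeR adjusted p = 0.000242 and 0.00204). Between postSTC and preSTC libraries the value was -0.51 ± 0.38 (edgeR adjusted p = 0.37).

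Cd8b encodes the beta chain, found on conventional CD8 T cells, and lies next to Cd8a on chromosome 4 in GRCr8. It had the lowest mean level of the 10 genes in each group, with 0.711, 4.09, 5.19 and 3.18 CPM in postSTC libraries, 3.43, 5.39, 2.43 and 2.47 CPM in preSTC libraries, and 0.314, 0.0507, 1.00 and 0.916 CPM in preCTC libraries. The preCTC values rested on 12, 2, 39 and 38 counts. Cd8b rose by 2.58 ± 0.74 in preSTC over preCTC libraries (edgeR adjusted p = 0.0161). It was -0.06 ± 0.68 between postSTC and preSTC libraries (edgeR adjusted p = 0.965). Its rise of 2.52 ± 0.74 in postSTC over preCTC libraries (edgeR adjusted p = 0.0357) was lost without postSTC replicate 2 (0.0733), postSTC replicate 5 (0.0768), preCTC replicate 1 (0.0988) or preCTC replicate 9 (0.0513), and in the fit on the 8 libraries compared (0.0963), all as edgeR adjusted p, and in limma voom (adjusted p = 0.059). With the replicate block across 12 libraries it was also lost (edgeR adjusted p = 0.183), and in all it was called in 8 of 16 alternatives.

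The ratio of both coreceptors within a library does not depend on library scaling. On FPKM, reads per length and depth, Cd4 over Cd8a was 2.26, 2.52, 1.94 and 2.56 in postSTC libraries, 0.863, 1.11, 1.47 and 1.37 in preSTC libraries, and 12.0, 10.6, 6.47 and 6.5 in preCTC libraries. The 3 groups did not overlap. The log2 ratio of counts averaged 2.44 ± 0.18 in postSTC, 1.47 ± 0.34 in preSTC and 4.33 ± 0.46 in preCTC libraries (SD, n = 4 each). The differences were 0.97 for postSTC minus preSTC, -2.85 for preSTC minus preCTC and -1.88 for postSTC minus preCTC. Each gave p = 0.0286 in a two-sided exact permutation test, the smallest that 4 against 4 libraries allow, and 0.0857 after Benjamini-Hochberg adjustment over 15 ratio tests, so none passed. A p at this floor passes the adjustment only when most of the 15 tests reach the floor too. The adjusted value therefore does not measure how well the groups separated. Macrophages carry Cd4 as well. A joint list of macrophage and dendritic cell genes summed to 454 to 1070 CPM in postSTC, 679 to 859 CPM in preSTC and 681 to 886 CPM in preCTC libraries. Such a sum can hide single genes. Of 13 tested, 6 had a log2 value above 0 and 7 below 0 in postSTC over preSTC. There 3 were called higher and 0 lower (11.1% and 6.9% of all tested genes). The part of macrophages in this ratio was not tested.

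Cd8a over Cd8b overlapped between the groups. The log2 count ratio averaged 2.87 ± 0.7 in postSTC, 3.17 ± 0.3 in preSTC and 3.3 ± 1.48 in preCTC libraries (SD, n = 4 each). The exact permutation p was 0.4 for postSTC against preSTC, 0.971 for preSTC against preCTC and 0.657 for postSTC against preCTC (0.571, 0.971 and 0.704 after adjustment).

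**Figure D2:**
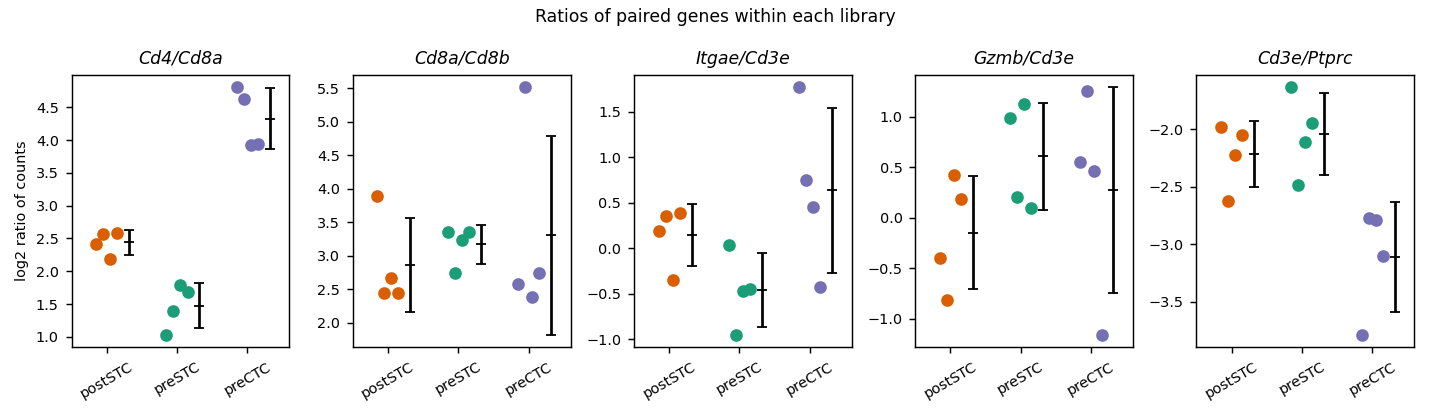
Log2 ratio of the counts of gene pairs within each library (vertical axis, a scale of its own for each pair), with postSTC, preSTC and preCTC from left to right; points are libraries, and the bar beside them is the mean ± SD (n = 4). Cd4/Cd8a separates the 3 groups with means of 2.44, 1.47 and 4.33, whereas the groups overlap for Cd8a/Cd8b and Gzmb/Cd3e.

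Cd96, a receptor for nectin-family ligands on T and NK cells, had 7.82, 13.9, 21.9 and 21.9 CPM in postSTC libraries, 16.5, 20.9, 16 and 21.2 CPM in preSTC libraries, and 1.15, 2.61, 4.09 and 3.37 CPM in preCTC libraries. Both STC groups were above every preCTC library and overlapped each other. Cd96 was higher by 2.73 ± 0.39 in preSTC and by 2.54 ± 0.39 in postSTC libraries, each over preCTC (edgeR adjusted p = 0.000277 and 0.00113). The difference between postSTC and preSTC was -0.19 ± 0.37 (edgeR adjusted p = 0.758).

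Itgae had 16.4, 30.7, 29.8 and 23.6 CPM in postSTC libraries, 37.8, 30.5, 26.4 and 32.3 CPM in preSTC libraries, and 8.21, 10.1, 13.1 and 9.3 CPM in preCTC libraries. All values of both STC groups exceeded all preCTC values. The log2 fold change of 1.64 ± 0.21 for preSTC over preCTC was the smallest among the 9 genes that rose (edgeR adjusted p = 0.000128). Itgae was higher by 1.30 ± 0.21 in postSTC over preCTC libraries (edgeR adjusted p = 0.00146) and stood at -0.34 ± 0.21 between postSTC and preSTC libraries (edgeR adjusted p = 0.276). Relative to Cd3e, the log2 count ratio of Itgae averaged 0.14 ± 0.34 in postSTC, -0.46 ± 0.4 in preSTC and 0.63 ± 0.9 in preCTC libraries (SD, n = 4 each). The exact permutation p was 0.0571 for postSTC against preSTC, 0.0571 for preSTC against preCTC and 0.371 for postSTC against preCTC (0.122, 0.122 and 0.571 after adjustment). The Itgae promoter window, at chr10:58203118-58203417 on the plus strand, is shown because it was the 1 window of the 8 with the GATA-type letters (here as the reverse complement, TTATCT), which 11.6% of all windows hold.
Itgae: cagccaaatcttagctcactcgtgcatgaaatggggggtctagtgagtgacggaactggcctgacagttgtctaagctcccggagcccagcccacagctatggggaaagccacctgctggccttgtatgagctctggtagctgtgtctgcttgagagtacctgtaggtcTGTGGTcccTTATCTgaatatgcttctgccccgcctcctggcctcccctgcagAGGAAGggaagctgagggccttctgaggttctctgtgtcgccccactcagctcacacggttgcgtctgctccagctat
The same window holds the RUNX-type letters TGTGGT close by and the ETS-type AGGAAG nearer the start. Runx3, the RUNX factor of CD8 T cells, is among the genes given with the lineage factors.

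Gzmb, the granule protease granzyme B, showed the lowest log2 value of the 10 genes between postSTC and preSTC libraries. Its CPM were 10.9, 13.7, 50.8 and 20.6 in postSTC libraries, 72.8, 68, 80 and 47.3 in preSTC libraries, and 3.53, 14.3, 13.2 and 5.57 in preCTC libraries. Postoperative replicates 1, 2 and 7 lay below every preSTC library, and replicate 5 lay inside the preSTC range. The means were 24 ± 18.3 CPM in postSTC and 67 ± 14 CPM in preSTC libraries (SD, n = 4 each), and the log2 difference was -1.48 ± 0.51 (edgeR adjusted p = 0.0658). With the replicate number as a block across 12 libraries the value was -1.75 ± 0.44 (edgeR adjusted p = 0.0425), and with the block in the 8 libraries compared it was -1.72 ± 0.47 (edgeR adjusted p = 0.14). Without postSTC replicate 5 it was -2.16 ± 0.46 (edgeR adjusted p = 0.0151).

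Gzmb rose by 2.87 ± 0.54 in preSTC over preCTC libraries, where it averaged 9.14 ± 5.38 CPM in preCTC (edgeR adjusted p = 0.00155). It stood at 1.40 ± 0.52 in postSTC over preCTC libraries (edgeR adjusted p = 0.0871, and 0.0257 in DESeq2). Within libraries, the log2 count ratio of Gzmb to Cd3e averaged -0.15 ± 0.56 in postSTC, 0.61 ± 0.53 in preSTC and 0.27 ± 1.02 in preCTC libraries (SD, n = 4 each). The exact permutation p was 0.143 for postSTC against preSTC, 0.657 for preSTC against preCTC and 0.457 for postSTC against preCTC (0.268, 0.704 and 0.571 after adjustment). The table lists close relatives of Gzmb in its gene cluster, so its value as a single gene is uncertain. Its promoter window, at chr15:34462420-34462719 on the minus strand in GRCr8, is shown for its 3 RUNX-type matches (1 of them as the reverse complement).
Gzmb: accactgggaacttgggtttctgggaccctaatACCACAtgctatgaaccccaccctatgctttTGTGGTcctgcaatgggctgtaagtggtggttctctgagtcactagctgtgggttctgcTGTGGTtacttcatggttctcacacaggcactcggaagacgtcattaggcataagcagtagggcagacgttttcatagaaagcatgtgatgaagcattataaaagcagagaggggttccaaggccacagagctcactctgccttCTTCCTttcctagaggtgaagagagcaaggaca
RUNX-type letters were found in 3 of the 8 windows (Cd96, Gzmb and Itgae), against 17.3% of all rat windows. The Cd8a window held none of the 4 motifs, which says only that these letters are not in it.

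**Figure D3:**
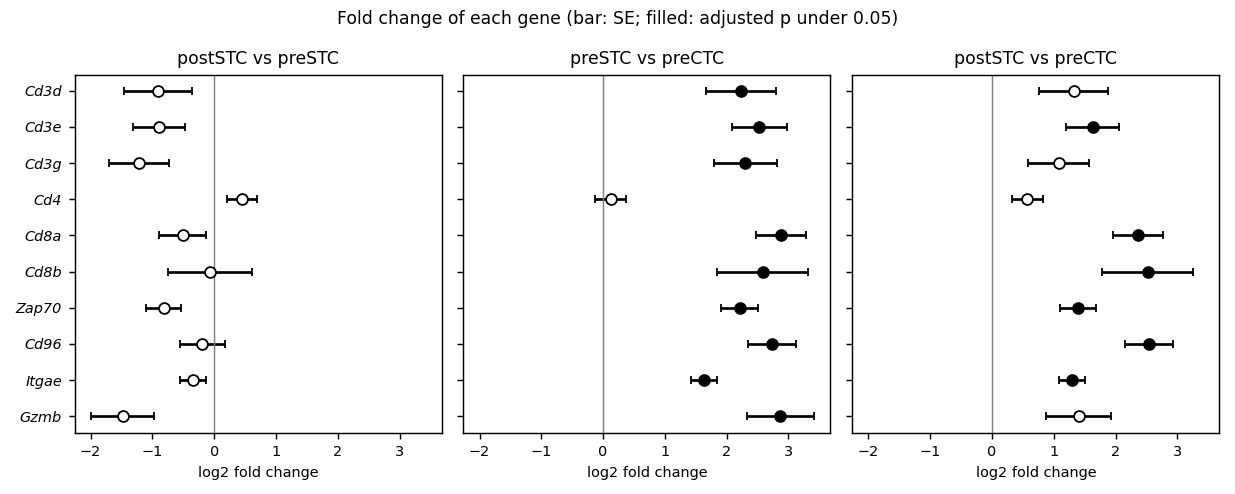
Log2 fold change of each of the 10 genes with its standard error (horizontal axis) for postSTC over preSTC, preSTC over preCTC and postSTC over preCTC (panels from left to right), from edgeR on 12 libraries; filled points have an adjusted p under 0.05. In the postSTC over preSTC values none is filled, and in the preSTC over preCTC values all but Cd4 are.

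Levels can be set between genes only per length, here as TMM-scaled FPKM. In postSTC libraries Cd4 led with 34.2 ± 12.5, followed by Cd3g (22.3 ± 6.82), Cd3e (18.5 ± 8.13), Gzmb (16.6 ± 12.7) and Cd8a (15.1 ± 6.78), means that lay within the spread of their neighbours. In preSTC libraries Cd3g (52 ± 20.9), Gzmb (46.4 ± 9.7) and Cd3e (34.4 ± 8.2) stood above Cd4 (25 ± 2.82) and Cd8a (21.5 ± 4.82). In preCTC libraries Cd4 led again with 23.1 ± 5.11, ahead of Cd3g (10.5 ± 8.99) and Gzmb (6.32 ± 3.73; all SD, n = 4). Cd8b had the lowest mean in each group, at 2.62 ± 1.52 in postSTC, 2.73 ± 1.1 in preSTC and 0.454 ± 0.368 in preCTC libraries.

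The T and NK cell genes scattered least among preSTC libraries, by the median, which is given as a description. Over the 10 genes, the median coefficient of variation was 42.8% in postSTC, 21.8% in preSTC and 53.1% in preCTC libraries. Of the postSTC libraries, replicate 1 was lowest for 9 of the 10 genes and replicate 5 highest for 8. Among preCTC libraries, replicate 1 was lowest for 8 genes and replicate 9 highest for 6. After the group means were removed, all 45 pairs of genes correlated above 0 across the 12 libraries, with a median Pearson r of 0.71. Cd3d with Cd3e gave 0.98, while Cd3g with Gzmb gave 0.04 and Zap70 with Gzmb gave 0.17. These are descriptions over libraries that share RNA and scaling, and Gzmb had the lowest median r (0.53).

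Outside the set, the genes whose group-centred levels most resembled the mean of the 10 over the 12 libraries were Gpr65 (r = 0.984), Fyb1 (0.973), Dok2 (0.966), Lck (0.96) and Itgal (0.958). Between postSTC and preSTC libraries Gpr65, Fyb1 and Dok2 had log2 values of -0.11, -0.12 and 0.08, and Lck and Itgal of -0.93 and -0.57, and none passed (edgeR adjusted p = 0.889, 0.828, 0.869, 0.0857 and 0.149). In preSTC over preCTC libraries all but Gpr65 (1.03, edgeR adjusted p = 0.0885) rose, with Fyb1 at 1.21, Dok2 at 0.91 and Itgal at 0.82. Lck encodes the kinase that phosphorylates CD3 chains. It averaged 32.2 ± 13.3 CPM in postSTC, 61.6 ± 18.3 CPM in preSTC and 15.8 ± 6.48 CPM in preCTC libraries (SD, n = 4 each). Lck rose in preSTC over preCTC libraries by 1.96 ± 0.36 (edgeR adjusted p = 0.00134).

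Of 27 other genes of T cell receptor signalling, 23 were in the table and tested, since Trac, Trbc1, Trbc2 and Trdc were not matched. In preSTC over preCTC libraries 17 of 23 rose (19.1% of all tested genes did), led by Trat1 (2.95), Themis (2.42) and Ctla4 (2.26), and Rasgrp1 fell by 1.22 on the log2 scale. The Rasgrp1 call was lost without preCTC replicate 1 or 9 or preSTC replicate 1 or 7, at edgeR adjusted p of 0.0757, 0.0547, 0.0627 and 0.064. It was also lost in limma voom (adjusted p = 0.0595) and with the replicate block across 12 libraries (edgeR adjusted p = 0.071). The median over the list was 1.71, against -0.02 over all tested genes. In postSTC over preCTC libraries 1 of 23 was higher, the adaptor gene Sh2d2a (1.48), where 9.27% of all tested genes were, and the median was 0.83. This count depended on the tool: DESeq2 called 9 of the list higher and limma voom 3. Over all genes DESeq2 called 3551 in this comparison and limma voom 2488, against 2612 in edgeR. Without postSTC replicate 7, 3 were higher (Lcp2, Themis and Sh2d2a), in a fit that called 3123 of all genes in either direction. The Sh2d2a call was lost without postSTC replicate 2 or 5 or preCTC replicate 7, at edgeR adjusted p of 0.0523, 0.0631 and 0.0504. It was also lost with the replicate block across 12 libraries (edgeR adjusted p = 0.0801) and in the fit on the 8 libraries compared (edgeR adjusted p = 0.0739).

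In postSTC over preSTC libraries 2 of the 23 signalling genes were called lower, the inhibitory receptor Ctla4 and the costimulatory receptor Icos. This count is near the background of 6.9% of all tested genes called lower, and the list's median was -0.69, against 0.04 over all genes. Ctla4 averaged 0.807 ± 0.61 CPM in postSTC and 2.86 ± 0.857 CPM in preSTC libraries (log2 -1.80 ± 0.52, edgeR adjusted p = 0.0336). Icos averaged 5.52 ± 3.21 CPM in postSTC and 17 ± 5.79 CPM in preSTC libraries (log2 -1.62 ± 0.47, edgeR adjusted p = 0.0356). Each call was lost when any of 6 of the 8 libraries was left out, at edgeR adjusted p of 0.0518 to 0.0852 for Ctla4 (all but postSTC replicates 5 and 7) and 0.0616 to 0.0918 for Icos (all but postSTC replicate 5 and preSTC replicate 1). Both held with the replicate block across 12 libraries and were lost with the block in the 8 libraries compared (edgeR adjusted p = 0.147 for Ctla4 and 0.0917 for Icos).

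Of 22 cytotoxic and NK genes, 21 were tested, and 18 rose in preSTC over preCTC libraries (19.1% of all tested genes did), with a median of 2.11. In postSTC over preCTC libraries 16 of 21 were higher (9.27% of all tested genes were), with a median of 1.83. The 5 that did not pass there were Prf1, Gzmk, Klrd1, Eomes and Slamf7, at edgeR adjusted p of 0.203, 0.115, 0.0893, 0.165 and 0.115. Ccl5, a chemokine released by activated T and NK cells, averaged 54.7 ± 27.6 CPM in postSTC, 61.7 ± 15.3 CPM in preSTC and 6.22 ± 1.85 CPM in preCTC libraries (SD, n = 4 each). It was higher by 3.13 ± 0.39 in postSTC over preCTC libraries (edgeR adjusted p = 0.000295). The NK receptor gene Cd160 was higher by 2.93 there, and in preSTC over preCTC libraries the receptor genes Tigit and Klrb1 were higher by 3.64 and 3.53.

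Ifng, the gene of interferon gamma, had 4, 1, 41 and 3 counts in postSTC libraries, 29, 28, 31 and 31 in preSTC libraries, and 0, 2, 1 and 0 in preCTC libraries. The depth-scaled ratio of summed counts was 43 for preSTC over preCTC, with an exact 95% interval of 14.4 to 212, and 19.6 for postSTC over preCTC, with an interval of 6.34 to 98.5. Such intervals cover counting error only. Of the postSTC counts, most came from replicate 5, and the postSTC over preCTC call (edgeR adjusted p = 0.0333) was lost without it (0.151) and without preCTC replicate 1 (0.0875), 7 (0.0732) or 9 (0.0813). The call was also lost in limma voom (adjusted p = 0.106).

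Between postSTC and preSTC libraries 2 of the 21 cytotoxic genes were called lower, close to the 6.9% of all tested genes that were. Gzmm, another granzyme, fell by 1.18 ± 0.35 (edgeR adjusted p = 0.0365) and Crtam, a receptor of activated cytotoxic cells, by 1.18 ± 0.38 (edgeR adjusted p = 0.0491). The list's median was -0.35. With the replicate block across 12 libraries neither passed (edgeR adjusted p = 0.0572 for Gzmm and 0.0944 for Crtam). Gzmm was also lost without postSTC replicate 1 or 7 or preSTC replicate 1, 5 or 9 (0.0534 to 0.116), and Crtam without any library but postSTC replicate 5 (0.0656 to 0.131), as edgeR adjusted p.

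Among genes of homing to the gut, Ccl25, the chemokine that small-intestinal epithelium secretes to draw T cells, had 333, 316, 174 and 108 CPM in postSTC libraries, 451, 415, 427 and 516 CPM in preSTC libraries, and 1.96, 2.56, 2.42 and 1.69 CPM in preCTC libraries. The 3 groups did not overlap. Ccl25 was higher by 7.71 ± 0.39 in preSTC and by 6.75 ± 0.38 in postSTC libraries, each over preCTC (edgeR adjusted p = 1.46e-07 and 4.6e-07). It was lower in postSTC than in preSTC libraries (log2 -0.96 ± 0.29, edgeR adjusted p = 0.0412), a call lost with the replicate block (0.0519) and without postSTC replicate 5 or any 1 preSTC library (0.0688 to 0.1), as edgeR adjusted p.

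Ccr9, the receptor for Ccl25 on gut-homing T cells, averaged 10.9 ± 1.67 CPM in postSTC, 24.2 ± 4.45 CPM in preSTC and 1.19 ± 0.772 CPM in preCTC libraries (SD, n = 4 each). It rose by 4.34 ± 0.43 in preSTC and by 3.19 ± 0.41 in postSTC libraries, each over preCTC (edgeR adjusted p = 2.11e-05 and 0.000383). Ccr9 did not pass the test between postSTC and preSTC libraries (-1.15 ± 0.37, edgeR adjusted p = 0.0524). Of 16 homing and residency genes tested, 1 was higher and 1 lower in postSTC over preSTC libraries, with a median of -0.53, where 11.1% of all tested genes were higher and 6.9% lower. In preSTC over preCTC libraries 6 were higher and 1 lower (19.1% and 19.6% of all genes), with a median of 1.07. In postSTC over preCTC libraries 4 were higher and 1 lower (9.27% and 7.37% of all genes), with a median of 0.55. Besides Ccl25 and Ccr9, Gpr18 led before surgery (2.47) and Cxcr6 led after it (1.81). The gene that went the other way was Itga1, an integrin chain that smooth muscle carries too: its log2 value was -1.06 in preSTC over preCTC, -0.51 in postSTC over preCTC and 0.54 in postSTC over preSTC libraries. The last of these did not pass with the replicate block (edgeR adjusted p = 0.0773). The calls of Itga1 were lost without any of 6 of 8 libraries in postSTC over preSTC (all but postSTC replicates 1 and 2; 0.0664 to 0.0895) and in postSTC over preCTC (all but postSTC replicate 7 and preCTC replicate 1; 0.0731 to 0.111), as edgeR adjusted p.

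Among lineage factors and cytokine receptors, 18 of 20 were tested. In preSTC over preCTC libraries 10 rose (19.1% of all tested genes did), with a median of 1.13, among them Ikzf3 (2.18), Ikzf1 (1.64) and Runx3 (1.62 ± 0.19, edgeR adjusted p = 5.51e-05). The Ikzf1 call was lost without preCTC replicate 1 or 5 or preSTC replicate 5 (edgeR adjusted p = 0.0573, 0.0548 and 0.0725). Runx3 averaged 19.6 ± 4.41 CPM in postSTC, 32.2 ± 5.85 CPM in preSTC and 10.4 ± 1.1 CPM in preCTC libraries (SD, n = 4 each).

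In postSTC over preSTC libraries Runx3 fell by 0.72 ± 0.18 (edgeR adjusted p = 0.0196; 0.0601 without preSTC replicate 5; 0.105 with the block in the 8 libraries compared). Bcl11b, a factor that keeps T cell identity, fell by 0.74 ± 0.20 (edgeR adjusted p = 0.0239), which was lost with the block across 12 libraries (0.0584) and without preSTC replicate 1, 7 or 9 (0.0569 to 0.0642). In this comparison 1 of the 18 was called higher and 2 lower, against 11.1% and 6.9% of all tested genes, and the list's median was -0.60. Gata3 was called higher (4.53, edgeR adjusted p = 0.0486) on the strength of postSTC replicate 7 and stood at -0.03 without it (0.976). It was also lost without any 1 preSTC library (0.0999 to 0.119) and with the block across 12 libraries (0.255).

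In postSTC over preCTC libraries 3 of the 18 lineage genes were called higher (9.27% of all tested genes were), with a median of 0.63: Gata3 (5.58, and lost without postSTC replicate 7 at edgeR adjusted p = 0.143), the interleukin-7 receptor gene Il7r (1.19) and Runx3 (0.91). Gata3 was also lost without any 1 preCTC library (0.061 to 0.0789), and Il7r without postSTC replicate 2 or 5 or preCTC replicate 1, 5 or 9 (0.0513 to 0.0675), as edgeR adjusted p. Il7r was lost too with the replicate block across 12 libraries (edgeR adjusted p = 0.123) and in the fit on the 8 libraries compared (edgeR adjusted p = 0.068).

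**Figure D4:**
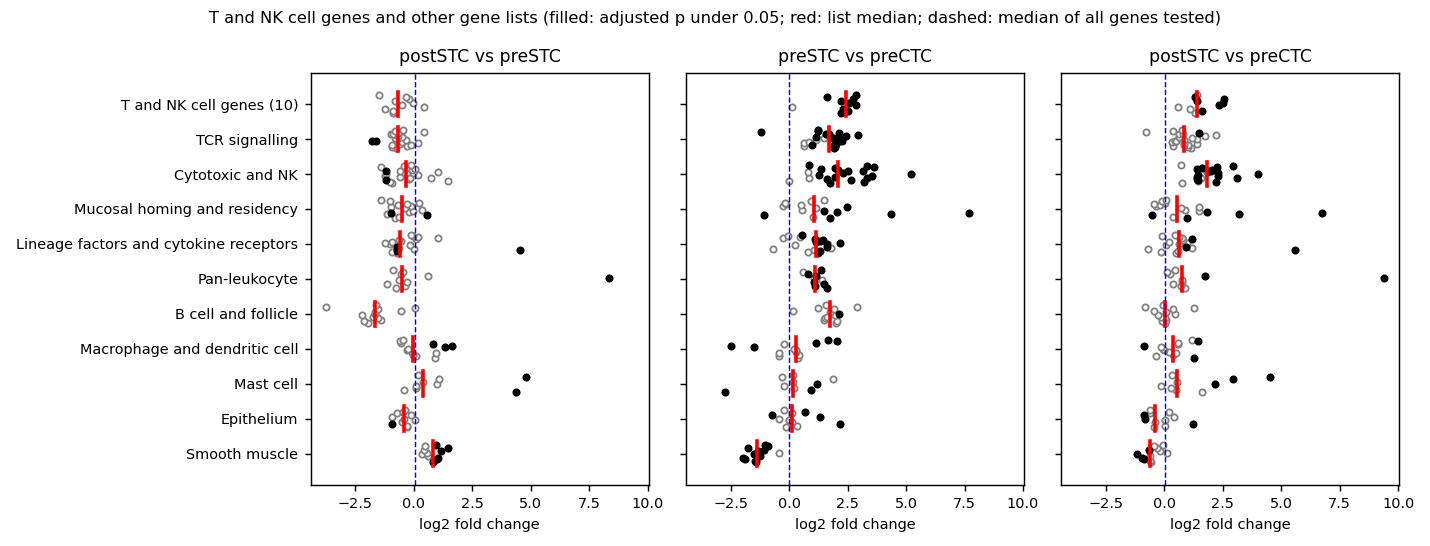
Log2 fold change (horizontal axis) of each tested gene of the 10 T and NK cell genes and of each gene list, in 3 panels for postSTC over preSTC, preSTC over preCTC and postSTC over preCTC; filled points have an edgeR adjusted p under 0.05, red bars are list medians and the dashed line is the median of all tested genes. In preSTC over preCTC the medians of the T cell, cytotoxic and leukocyte lists lie right of the dashed line and that of smooth muscle left of it, with the opposite sides in postSTC over preSTC.

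Markers of other cell types had values in several directions between the groups, and some counts of calls were near the share over all genes. Ptprc, which encodes the pan-leukocyte surface protein CD45, had a log2 value of -0.75 ± 0.45 in postSTC over preSTC, 1.63 ± 0.46 in preSTC over preCTC and 0.88 ± 0.46 in postSTC over preCTC libraries (edgeR adjusted p = 0.275, 0.0159 and 0.216). The second of these was lost without preSTC replicate 5 (edgeR adjusted p = 0.054). Within libraries, the log2 count ratio of Cd3e to Ptprc averaged -2.22 ± 0.29 in postSTC, -2.04 ± 0.35 in preSTC and -3.11 ± 0.48 in preCTC libraries (SD, n = 4 each). It was 1.08 higher in preSTC than in preCTC and 0.89 higher in postSTC than in preCTC libraries, with no overlap. Each gave an exact permutation p of 0.0286, the smallest the design allows, and 0.0857 after adjustment, with the limit given for Cd4 over Cd8a. Between postSTC and preSTC the difference was -0.18 (exact permutation p = 0.429, 0.571 after adjustment).

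Leukocyte markers other than Cd52 summed to 314 to 843 CPM in postSTC, 578 to 1340 CPM in preSTC and 225 to 537 CPM in preCTC libraries, and 7 of 10 were called higher in preSTC over preCTC (19.1% of all genes). In postSTC over preSTC, where 18% of all tested genes were called, the 1 call was Cd52, which was lost without postSTC replicate 7. The 10 T and NK cell genes summed to 144 to 384, 323 to 403 and 79.9 to 164 CPM in the same groups. B cell and follicle genes varied within groups, summing to 51.6 to 242 CPM in postSTC, 46.9 to 947 CPM in preSTC and 31.9 to 303 CPM in preCTC libraries. Of these 13, edgeR called none between postSTC and preSTC (median -1.67), where 18% of all tested genes were called. At an unadjusted p under 0.05 in edgeR, 3 had a lower level, against 13.5% of all tested genes. DESeq2 called 2 lower and limma voom none. In preSTC over preCTC edgeR called 1 higher (19.1% of all tested genes). In postSTC over preCTC none of the 3 tools called any, where edgeR called 16.6% of all tested genes, and none had an unadjusted p under 0.05. Of the macrophage and dendritic cell genes, Marco was at 0 in every preSTC and preCTC library. Of 13 tested, 3 were higher in postSTC over preSTC (11.1% of all tested genes were). In preSTC over preCTC 3 were higher and 2 lower (19.1% and 19.6% of all tested genes). In postSTC over preCTC 2 were higher and 1 lower (9.27% and 7.37% of all tested genes).

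The muscle genes of the gut wall differed too. Smooth muscle genes summed to 7070 to 10800 CPM in postSTC, 4000 to 6020 CPM in preSTC and 11600 to 19400 CPM in preCTC libraries. Of these 12, 6 rose in postSTC over preSTC (11.1% of all tested genes did) and 11 fell in preSTC over preCTC (19.6% did). In postSTC over preCTC 4 fell (7.37% of all tested genes did), and 7 without postSTC replicate 7. Leaving that library out raised the calls over all genes in this comparison from 2612 to 3123. The medians were 0.83, -1.37 and -0.60 in these comparisons. Epithelial genes summed to 7120 to 14600, 13700 to 17100 and 10300 to 14400 CPM in the same groups. Of 11 genes, 1 fell in postSTC over preSTC (6.9% of all tested genes did), and none without postSTC replicate 7. In preSTC over preCTC 3 rose and 1 fell (19.1% and 19.6% of all tested genes). In postSTC over preCTC 1 rose and 2 fell (9.27% and 7.37% of all tested genes). Mast cell genes other than Gata2, which was high in postSTC replicate 7, summed to 221 to 370, 289 to 394 and 183 to 235 CPM. Of the 9, 2 were higher in postSTC over preSTC (11.1% of all tested genes were). In preSTC over preCTC 2 were higher and 1 lower (19.1% and 19.6% of all tested genes), and in postSTC over preCTC 3 were higher (9.27%). Without postSTC replicate 7 these counts were 3 higher, 2 higher and 1 lower, and 5 higher. That fit called 2907 of all genes between postSTC and preSTC and 3123 between postSTC and preCTC, against 2833 and 2612 with all libraries. DESeq2 and limma voom each called 1 mast cell gene higher in postSTC over preSTC with all libraries. The part of the muscle, epithelial, B cell and macrophage content of a sample in the values of the T and NK cell genes was not tested.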

How the data were processed

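Gene lists and the 10 genes were chosen with earlier results of these data known. Polyadenylated RNA of 12 rat intestine libraries was sequenced in 1 batch, per the labels. The deposited counts are whole reads per gene, and the deposited FPKM were computed by the authors from the same counts (proportional within each gene to a relative deviation of at most 8.8e-16). HTSeq, HISAT2 and fastp are named as tools and mRatBN7.2 as assembly, without roles, per the submitters' processing notes. The series' design text describes another species and other tools and was not used. Whether counting used strand, and how reads matching several genes were treated, is not given in the sources used here. Of 18749 identifiers, 18531 (98.8%) matched the RefSeq table of GRCr8, an assembly other than that of the counts, so it served for names, neighbours and promoter windows only.

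Counts were analysed in R 4.3.3 with edgeR 4.0.16: TMM scaling, filterByExpr, and a single quasi-likelihood fit by group alone over all 12 libraries, tested two-sided, with Benjamini-Hochberg adjustment over 15704 genes and calls at an adjusted p under 0.05. Standard errors were derived from F, as the size of the log2 difference over the root of F. CPM and FPKM levels were scaled with the TMM factors. Log2 ratios of counts within a library used a pseudocount of 0.5 and exact permutation tests. Genes named from other lists are up to 3 per direction and comparison with the largest called change, and the 5 genes most alike in level. The scripts were tested on simulated data. No replicates agreed within sampling noise (chi-square per gene at least 33.2).

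Same-numbered libraries deviated together between postSTC and preSTC (r = 0.293, 0.202 and 0.173, against at most 0.135 for unlike numbers). The numbers were therefore taken to pair these libraries, which rests on the data and not on the labels. No same-numbered partner existed for postSTC replicate 2 or preSTC replicate 9. The main calls are from the fit by group alone, which does not use the pairs. Alternatives were DESeq2 1.42.0 and its size factors, limma 3.58.1 voom, no filter on low counts, the replicate block, fits on the 8 libraries compared, leaving out the accessory gland genes (listed after the data were seen), another pseudocount and leaving out each library.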

Additional observations from a re-analysis of the deposited data

Results flagged for a closer look

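Of 48 groups of 4 libraries examined for a single library far from the other 3, 2 held one, and chance gives about 5% of such groups. Both concern the log2 count ratio of Cd8a to Cd8b. It was 3.9 in postSTC replicate 1, against 2.44 to 2.67 in the other postSTC libraries. It was 5.52 in preCTC replicate 5, against 2.38 to 2.74 in the other preCTC libraries. The second value rests on 114 Cd8a and 2 Cd8b counts, a ratio of 57.0 with an exact 95% counting interval of 15.4 to 476.0.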

How the results depend on the processing

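The 9 calls among the 10 genes in preSTC over preCTC libraries held in all 16 alternatives. Between postSTC and preSTC libraries, where edgeR called none, DESeq2 called 3, limma voom 2, the replicate block across 12 libraries 1 and the fit on 8 libraries 1, each lower, the block in those 8 libraries 0, and leaving out 1 library gave 0 to 1. Between postSTC and preCTC libraries the 6 calls became 1 (Cd96) with the replicate block in the 8 libraries compared and 4 to 7 when 1 library was left out. With that block Ccr9, Cd160, Cxcr6 and Runx3 lost their calls over preCTC too (edgeR adjusted p = 0.0783, 0.0993, 0.0639 and 0.203). The losses given with single genes from other lists are not a full list. Gata3 in postSTC over preSTC turned to -0.03 without postSTC replicate 7, and reached up to 4.93 without another library. Over all genes, the 2833 calls between postSTC and preSTC became 3865 in DESeq2, 2391 in limma voom, and 1746 and 66 with the block (12 and 8 libraries). The fit on the 8 libraries compared, without the block, called 1928. They became 1609 and 1681 without preSTC replicates 1 and 7 and 1855 without preSTC replicate 5. They rose to 3684 without postSTC replicate 1 and 2907 without postSTC replicate 7. The 2612 calls between postSTC and preCTC became 1399 and 151 with the block and 1455 in the 8 libraries, and rose to 3123 without postSTC replicate 7. For preSTC against preCTC same-numbered libraries gave r = 0.261, -0.033, 0.195 and 0.127, and unlike numbers up to 0.233. For postSTC against preCTC they gave 0.228, -0.035 and 0.045, and unlike numbers up to 0.17. Whether the numbers pair these libraries was thus not settled. No ratio was called in any of the 150 alternatives for the ratios, but most of these could not have given a call. With a library left out, or with same-numbered libraries taken as pairs, the smallest possible p is above 0.05. Only the alternatives with another pseudocount could have changed a call, so the count of 150 does not measure how firm the ratio results are. Why calls moved was not tested. Cd8b rests on as few as 2 counts in a library.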

Other observations

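Cd3g and Cd3e, neighbours in 1 gene cluster, did not keep 1 ratio. Cd3g over Cd3e counts were 0.98, 0.744, 0.609 and 0.633 in postSTC replicates 1, 2, 5 and 7, 0.729, 0.674, 0.781 and 1.38 in preSTC replicates 1, 5, 7 and 9, and 1.22, 0.679, 0.708 and 1.41 in preCTC replicates 1, 5, 7 and 9. Both libraries numbered 9 were thus the highest of their group. The ratio was chosen after its values were seen and was not tested.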
